A study of Mus musculus with 16 samples.

Results

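Cxcl9, Cxcl10 and Ubd, which interferon-gamma is known to induce, were followed in the livers of 16 male C57BL6 mice. They are 3 of the 5205 genes listed in either of 2 deposited tables, were taken by gene name, and are listed in both tables, as are 752 genes in all. The mice were TSP1F/F, which carry a floxed Thbs1 gene (thrombospondin 1) and no deletion, or their TSP1ΔPf4 littermates, in which Pf4-Cre, active in megakaryocytes and the platelets they form, removes the floxed gene. Each genotype was fed a low-fat (LF) diet or the AMLN diet, rich in fat, fructose and cholesterol, for 32 weeks, with 4 mice in each of the 4 groups. The mice are listed at 8 weeks of age, without the step of the experiment this refers to. The study asked how loss of platelet TSP1 affects diet-induced steatohepatitis. Whole liver was sequenced, so that a lower level from fewer cells of a type and a lower level from less RNA per cell cannot be told apart.

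Interferon-gamma, secreted mainly by T cells and natural killer cells, acts through JAK kinases on GAS elements, and through factors such as IRF1 on interferon-stimulated response elements (ISRE). Cxcl9 and Cxcl10 encode secreted chemokines that bind CXCR3 and attract activated T cells and natural killer cells. Ubd encodes FAT10, a ubiquitin-like modifier that marks proteins for the proteasome and is induced by interferon-gamma together with tumor necrosis factor. In the liver, macrophages, sinusoidal endothelium and hepatocytes are all able to express such genes after interferon exposure.

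The 3 genes lie at 2 loci of mm10. Cxcl9 (ENSMUSG00000029417) spans chr5:92321347-92328079 and Cxcl10 (ENSMUSG00000034855) spans chr5:92346638-92348889, both on the reverse strand and 18558 bases apart. Ubd (ENSMUSG00000035186) spans chr17:37193892-37196095 on the forward strand and overlaps no other annotated gene. The whole of Cxcl10 lies within Art3, a gene on the opposite strand, and whether reads were counted by strand is not given in the sources used here. Art3 had 1 to 56 counts in the TSP1ΔPf4 livers, where it is listed, against 20 to 200 for Cxcl10, so that a part of the Cxcl10 counts could be shared with it.

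The promoters are shown because the 3 genes are grouped by an inducer that acts there. Each run below holds the 250 bases before the RefSeq start of the gene in GRCm38.p6, the assembly also called mm10, written 5′ to 3′ on the gene's own strand. Capitals mark matches on either strand to the ISRE core (GAAA, any 2 bases, GAAA), to the GAS letters TTCNNNGAA or to the NF-kappaB consensus. The windows are chr5:92328080-92328329 for Cxcl9, chr5:92348890-92349139 for Cxcl10 and chr17:37193642-37193891 for Ubd.
Cxcl9: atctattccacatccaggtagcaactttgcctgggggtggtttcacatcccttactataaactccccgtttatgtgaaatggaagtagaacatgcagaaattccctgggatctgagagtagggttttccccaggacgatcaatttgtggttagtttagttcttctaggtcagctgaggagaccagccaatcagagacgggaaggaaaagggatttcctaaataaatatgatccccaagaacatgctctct
Cxcl10: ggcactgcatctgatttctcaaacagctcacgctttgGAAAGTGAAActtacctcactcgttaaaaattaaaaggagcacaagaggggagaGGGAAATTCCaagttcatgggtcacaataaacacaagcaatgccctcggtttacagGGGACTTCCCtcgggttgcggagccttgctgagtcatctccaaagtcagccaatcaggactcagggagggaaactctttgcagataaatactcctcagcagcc
Ubd: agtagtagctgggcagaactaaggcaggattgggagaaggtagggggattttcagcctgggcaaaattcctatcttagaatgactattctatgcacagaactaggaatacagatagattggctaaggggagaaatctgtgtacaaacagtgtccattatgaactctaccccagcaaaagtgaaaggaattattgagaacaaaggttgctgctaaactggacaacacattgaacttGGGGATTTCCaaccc

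The ISRE core was found in the Cxcl10 window, 213 bases before the start, and 3.0% of the 32851 promoters in the RefSeq table hold it in a window of this length. The NF-kappaB consensus was found in the Cxcl10 window at 159 and 103 bases and in the Ubd window at 15 bases before the start, with a background of 3.9% of promoters. The GAS letters, held by 7.0% of promoters, were in none of the 3 windows, and the Cxcl9 window held none of the 3 motifs. These matches describe letters within 250 bases and were not measured as bound sites.

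Library totals, which were recovered from FPKM, gene length and counts, ranged from 17127965 to 39753019, and the AMLN-fed groups were the deeper, with medians of 27661651 against 18908942 on the LF diet in TSP1F/F mice and of 27148200 against 18838183 in TSP1ΔPf4 mice. Levels are given as CPM, the counts scaled by this total. Of 12 hepatocyte markers only Ttr and Serpina1a are listed in both tables. In TSP1F/F mice they summed to 6179 to 8424 CPM on the LF and 2695 to 5876 CPM on the AMLN diet. In TSP1ΔPf4 mice they summed to 6873 to 8257 and 4235 to 5651 CPM. The sum was lower on the AMLN diet with no overlap in either genotype, but Ttr alone overlapped between the diets in TSP1F/F mice. Among single genes tested, 328 of 2096 in TSP1F/F and 899 of 3089 in TSP1ΔPf4 mice were also lower without overlap. Thbs1 counts of TSP1ΔPf4 livers are not analysed here, so the deleted gene does not check the genotype labels. Each table holds genes with an unadjusted p under 0.05 for the diet in the authors' own comparison of the same mice, so a small p for the diet is not independent evidence for a listed gene. The samples are separate mice, and the 3 genes had between 5 and 2169 counts per mouse.

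Ubd had the widest range of the 3 genes. In the 4 LF-fed TSP1F/F mice Ubd was at 0.261, 3.27, 1.38 and 0.901 CPM, and on the AMLN diet the values of this genotype were 10.6, 13.3, 54.6 and 55.5 CPM. In the TSP1ΔPf4 livers it was at 1.17, 0.531, 1.34 and 1.49 CPM on the LF diet and at 3.67, 8.43, 8.23 and 8.91 CPM on the AMLN diet. All 8 AMLN-fed mice were above all 8 LF-fed mice, and among the AMLN-fed mice every TSP1ΔPf4 value was below every TSP1F/F value. The AMLN-fed TSP1F/F mice formed a low and a high pair, while 3 of the 4 AMLN-fed TSP1ΔPf4 mice lay close together with the remaining mouse below them.

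Cxcl9 overlapped between the genotypes on each diet. It was at 4.85, 14.3, 10.6 and 4.28 CPM in LF-fed and at 15.2, 21.8, 40.8 and 38.7 CPM in AMLN-fed TSP1F/F mice. In TSP1ΔPf4 mice it was at 5.36, 4.93, 6.71 and 8.38 CPM on the LF diet and at 9.21, 34.7, 11.6 and 48.6 CPM on the AMLN diet. Within each genotype the diets did not overlap, but the AMLN-fed TSP1ΔPf4 group held both the highest Cxcl9 value of all 16 mice and 2 values below every AMLN-fed TSP1F/F mouse.

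Cxcl10 was the least variable of the 3 genes on the AMLN diet. It was at 2.40, 5.20, 3.14 and 3.98 CPM in LF-fed and at 5.93, 5.07, 7.12 and 7.90 CPM in AMLN-fed TSP1F/F mice. In TSP1ΔPf4 mice the LF values were 3.03, 2.61, 1.17 and 3.71 CPM and the AMLN values were 4.07, 5.06, 6.38 and 5.34 CPM. In TSP1F/F mice 1 LF-fed mouse (5.20 CPM) lay just above the lowest AMLN-fed mouse (5.07 CPM), and in TSP1ΔPf4 mice the diets did not overlap. On the AMLN diet the coefficient of variation of Cxcl10 was 19.2% in TSP1F/F and 18.2% in TSP1ΔPf4 mice, against 43.3% and 72.7% for Cxcl9 and 74.3% and 33.4% for Ubd.

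**Figure D1:**
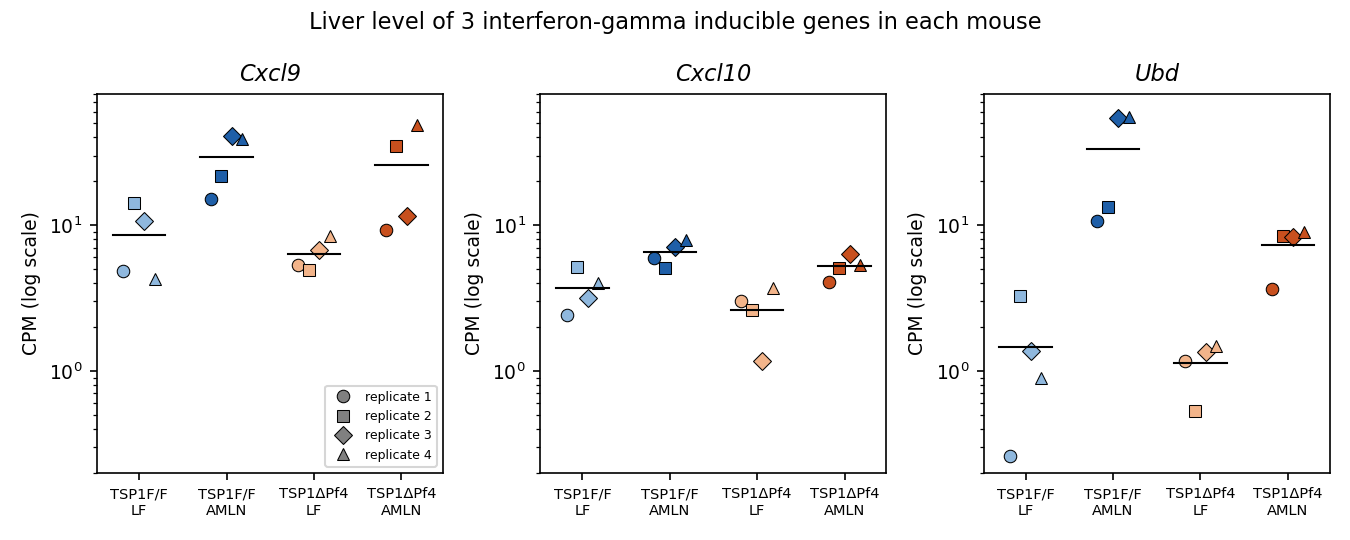
CPM of Cxcl9, Cxcl10 and Ubd (y axes, log scale) in each of the 16 mice by genotype and diet (x axes), with a symbol for each replicate number and a line at the mean of 4 mice. Ubd in AMLN-fed TSP1ΔPf4 mice, at 3.67 to 8.91 CPM, sits below all AMLN-fed TSP1F/F mice, at 10.6 to 55.5 CPM, while Cxcl9 and Cxcl10 overlap between the genotypes.

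The order of the group means differed in spacing between the genes. For Ubd the means were 33.5 ± 24.9 CPM (SD, n = 4 mice) in AMLN-fed TSP1F/F, 7.31 ± 2.44 in AMLN-fed TSP1ΔPf4, 1.45 ± 1.30 in LF-fed TSP1F/F and 1.13 ± 0.421 in LF-fed TSP1ΔPf4 mice, and only the LF-fed neighbors overlapped in their range. For Cxcl9 the order was the same, at 29.1 ± 12.6, 26.0 ± 18.9, 8.51 ± 4.79 and 6.35 ± 1.56 CPM, and each neighbor overlapped the next. For Cxcl10 the means were 6.50 ± 1.25, 5.21 ± 0.949, 3.68 ± 1.20 and 2.63 ± 1.08 CPM, again with every neighbor overlapping. Per length, mean Ubd was 36.0 FPKM and mean Cxcl9 was 9.65 FPKM in AMLN-fed TSP1F/F mice, whereas the means were 7.85 and 8.63 FPKM in AMLN-fed TSP1ΔPf4 mice. The length deposited for Cxcl10, 2252 bases, equals its whole genomic span, introns included, so its FPKM of 2.89 and 2.31 in those groups is low relative to a spliced length.

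The first comparison asked how the AMLN diet changed the 3 genes in TSP1F/F livers. Mean Ubd was 23.1-fold and mean Cxcl9 3.42-fold higher in AMLN-fed mice, and mean Cxcl10 was 1.77-fold higher. With edgeR's quasi-likelihood test and Benjamini-Hochberg adjustment over 16784 genes, the number the authors adjusted over, Ubd rose by a log2 fold change of 4.53 (SE 0.80, 95% interval 2.57 to 6.49, adjusted p = 0.0472). Cxcl9 had a log2 fold change of 1.78 (SE 0.47, adjusted p = 0.166) and Cxcl10 of 0.82 (SE 0.38, adjusted p = 0.512), which did not pass. Thus 1 of the 3 genes was called higher, against 2.39% of the 2096 genes tested, a call being an adjusted p under 0.05 with an absolute log2 fold change over 0.25. The groups did not overlap for Ubd and Cxcl9, as for 36.6% of the genes tested in this direction. The median log2 fold change of all genes tested was 1.15, so that Cxcl10 lay below it. The Ubd call was lost whenever any 1 of the 8 mice was left out (log2 fold change 4.18 to 5.30, adjusted p 0.0541 to 0.153), whereas DESeq2 gave it an adjusted p = 8.3e-07.

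The same comparison was made in TSP1ΔPf4 livers. Mean Ubd was 6.46-fold, mean Cxcl9 4.10-fold and mean Cxcl10 1.98-fold higher in AMLN-fed than in LF-fed mice. Ubd rose by a log2 fold change of 2.69 (SE 0.41, 95% interval 1.69 to 3.69, edgeR adjusted p = 0.0316), here adjusted over 13927 genes. Cxcl9 had a log2 fold change of 2.03 (SE 0.48, adjusted p = 0.0685) and Cxcl10 of 0.98 (SE 0.36, adjusted p = 0.166). Again 1 of 3 genes was called higher, against 1.46% of the 3089 genes tested, and all 3 had no overlap between the diets, against 20.4%. Cxcl9 passed the threshold with TMM scaling in edgeR (2.34, adjusted p = 0.0431). It also passed with DESeq2 (2.35, adjusted p = 4.01e-05), which differs in its test as well as its scaling, and DESeq2 also called Cxcl10 (1.29, adjusted p = 0.0248). With 1 mouse left out the Ubd call held in 4 of the 8 fits and was lost without AMLN-fed replicate 2 or 3 (adjusted p = 0.112 and 0.0980) or LF-fed replicate 2 or 4 (adjusted p = 0.0574 and 0.0890).

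The genotypes were then compared on the AMLN diet, over the genes listed in both tables. These genes were selected for a diet difference in the same mice, so the shares, medians and adjusted p of genotype and interaction hold among them only. Their adjustment covers fewer genes than that for the diet, so a call is not equally strict. The unadjusted edgeR p was 0.00141 for Ubd here, which was called, and 0.00132 for Cxcl9 and the diet in TSP1ΔPf4, which was not. Mean Ubd was 4.58-fold lower in TSP1ΔPf4 than in TSP1F/F livers, while mean Cxcl9 was 1.12-fold and mean Cxcl10 1.25-fold lower. Ubd fell by 2.20 on the log2 scale (SE 0.54, 95% interval -3.52 to -0.87, edgeR adjusted p = 0.0241 over 733 genes). The log2 differences of Cxcl9, -0.16 (SE 0.51, 95% interval -1.40 to 1.08, adjusted p = 0.872), and of Cxcl10, -0.32 (SE 0.32, 95% interval -1.11 to 0.47, adjusted p = 0.578), did not pass, and their intervals leave room for a difference in either direction. The sign of Cxcl9 turned under TMM (0.12) and that of both chemokines under DESeq2 (0.22 and 0.040). One of the 3 genes was called lower, against 8.46% of the genes tested, and Ubd also had no overlap, against 12.4% (two-sided exact permutation test of mean CPM, p = 0.0286, the smallest that 4 mice against 4 allow, unadjusted and 1 of 12 such tests computed).

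The genes tested for the genotype had a median log2 difference of -0.38. Relative to that median the log2 difference of Ubd was -1.82, and 4.09% of the genes had a lower value than Ubd. The median was -0.10 with TMM and -0.03 with DESeq2, where Ubd had -1.87 (adjusted p = 0.0412) and -1.77 (adjusted p = 0.00463). The call held in 3 of the 8 fits without 1 mouse. It was lost without AMLN-fed TSP1ΔPf4 replicate 1, 2 or 3 (adjusted p = 0.0718, 0.0674 and 0.0538) or TSP1F/F replicate 3 or 4 (adjusted p = 0.0915 and 0.0741), and the log2 difference stayed between -2.49 and -1.84.

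On the LF diet the 3 genes had small differences between the genotypes. The log2 differences, TSP1ΔPf4 over TSP1F/F, were -0.42 for Cxcl9 (SE 0.42), -0.48 for Cxcl10 (SE 0.44) and -0.36 for Ubd (SE 0.72), with edgeR adjusted p of 0.782, 0.740 and 0.880. No gene of 640 passed with edgeR, 44 had an unadjusted p under 0.05 and DESeq2 called 1. The 95% interval of Ubd was -2.12 to 1.41, with 5 to 61 Ubd counts per LF-fed liver. Without LF-fed TSP1F/F replicate 2, the highest of its group, its log2 difference was 0.41.

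Whether the diet effect itself differed between the genotypes was tested with all 16 mice. The interaction, the log2 diet effect in TSP1ΔPf4 minus that in TSP1F/F, was -1.84 for Ubd (SE 0.89, 95% interval -3.78 to 0.10, edgeR unadjusted p = 0.0537, adjusted p = 0.329), and 3 of 734 genes (0.409%) were called lower. It was 0.26 for Cxcl9 (SE 0.71, adjusted p = 0.964) and 0.16 for Cxcl10 (SE 0.54, adjusted p = 0.964). The Ubd response to the diet was therefore not shown to differ between the genotypes, although Ubd on the AMLN diet was called lower in TSP1ΔPf4 mice. Diet and genotype comparisons share groups of mice and are not independent of one another.

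**Figure D2:**
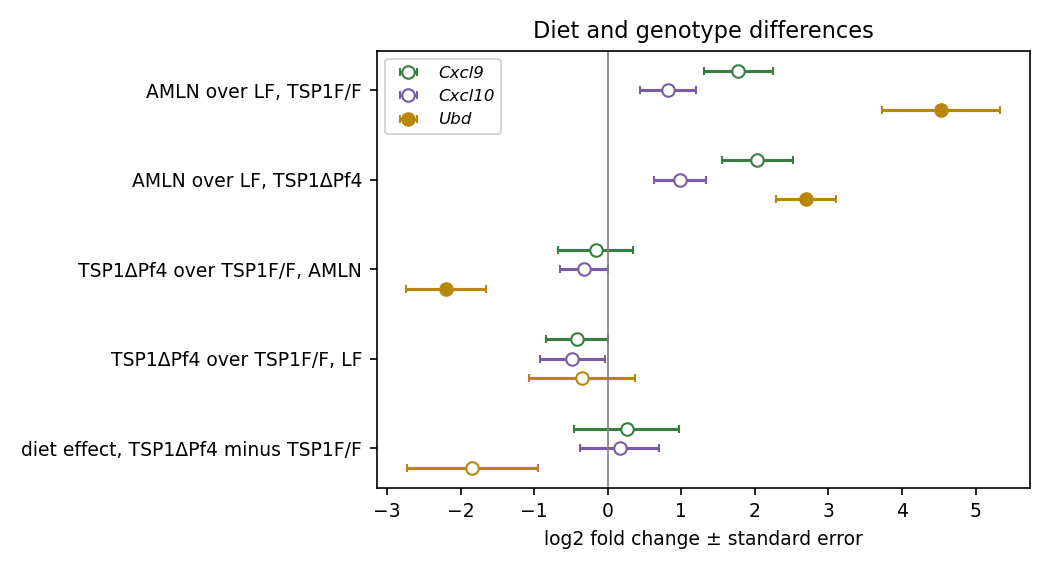
Log2 fold change with its standard error (x axis) of Cxcl9, Cxcl10 and Ubd in the 5 comparisons (y axis), with filled points for genes called by edgeR and open points for the others. Ubd is called for the diet at 4.53 in TSP1F/F and 2.69 in TSP1ΔPf4 mice and for the genotype on the AMLN diet at -2.20, and its interaction of -1.84 is not called. Diet calls are adjusted over 16784 and 13927 genes, and genotype and interaction calls over the fewer genes tested.

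Because scaling cancels within a mouse, Ubd was also set against each chemokine as a ratio of FPKM, a comparison chosen after the values were seen. The ratio of Ubd to Cxcl10 was 4.33, 6.34, 18.5 and 17.0 in the TSP1F/F and 2.18, 4.03, 3.12 and 4.04 in AMLN-fed TSP1ΔPf4 mice. These did not overlap, with a log2 difference of -1.57 (SE 0.56, two-sided exact permutation test p = 0.0286, unadjusted and 1 of 12 such tests computed). The ratio of Ubd to Cxcl9 was 2.27, 1.98, 4.33 and 4.65 against 1.29, 0.787, 2.30 and 0.594, and 1 TSP1ΔPf4 mouse lay within the TSP1F/F range. That log2 difference was -1.51 (SE 0.53, exact permutation p = 0.0857). The ratio of Cxcl9 to Cxcl10 differed by -0.07 on the log2 scale (SE 0.63, exact permutation p = 0.914). On the LF diet both Ubd ratios overlapped between the genotypes.

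**Figure D3:**
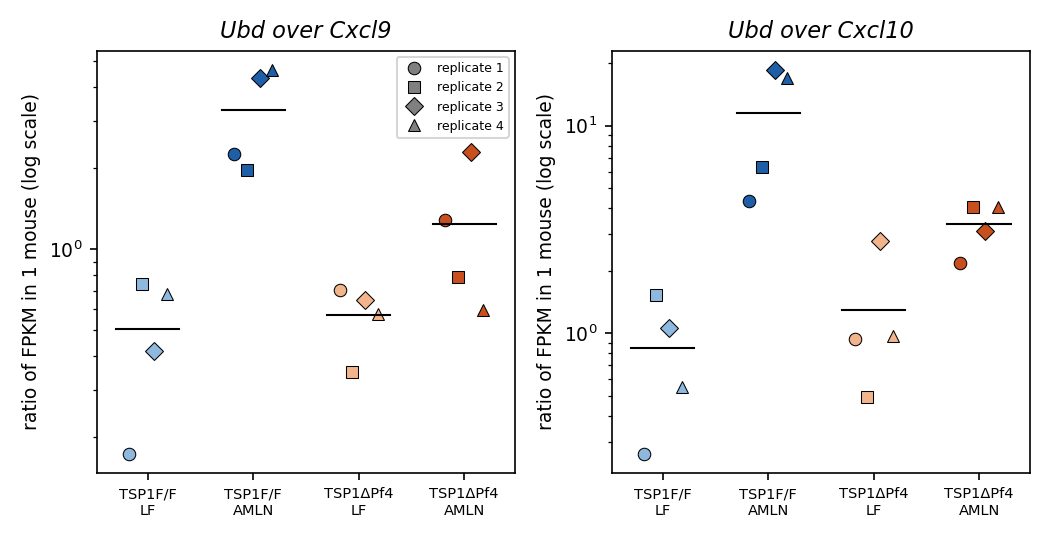
Ratio of the FPKM of Ubd to that of Cxcl9 (left) and of Cxcl10 (right) in each mouse (y axes, log scale) by genotype and diet, with a symbol for each replicate number and a line at the mean of 4 mice. The ratio to Cxcl10 is 4.33 to 18.5 in AMLN-fed TSP1F/F and 2.18 to 4.04 in AMLN-fed TSP1ΔPf4 mice, and the ratio to Cxcl9 overlaps.

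The ligands and receptors around the 3 genes were only partly listed. Cxcl11, the remaining gene of the CXCR3 ligand family, is annotated as a polymorphic pseudogene in mm10. Cxcl11, Cxcr3 itself, Ifng and Irf1 are in neither table and are not analysed here. Of 15 interferon-gamma signaling genes 4 are listed for TSP1F/F and 2 for TSP1ΔPf4, and 0 were called with edgeR in either, while 4 and 2 had an unadjusted p under 0.05. Such a p was found in 53% of the genes tested for a higher and 27.1% for a lower level in TSP1F/F mice, and in 33.8% and 51.9% in TSP1ΔPf4 mice. Ciita, the master regulator of MHC class II genes, was at 0.363 ± 0.335 CPM on the LF and 6.66 ± 3.68 CPM on the AMLN diet in TSP1F/F mice (log2 fold change 4.19, adjusted p = 0.0749) and at 0.422 ± 0.536 and 2.55 ± 1.18 CPM in TSP1ΔPf4 mice (2.61, adjusted p = 0.0936). Irf8, a myeloid interferon regulatory factor, had log2 fold changes of 1.95 and 1.43 for the diet (adjusted p = 0.330 and 0.0518). Ifngr1, a receptor subunit, had 0.78 and Irf9, another interferon regulatory factor, had -0.58 in TSP1F/F mice, neither of them called.

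All 6 genes of the MHC class II list, which act in the presentation of antigen to T cells, are in both tables with positive log2 fold changes for the diet. In each genotype 3 of 6 were called higher, against 2.39% and 1.46% of all genes tested, namely H2-Aa, H2-Eb1 and Cd74, with log2 fold changes of 2.84, 2.99 and 2.88 in TSP1F/F and of 1.71, 1.91 and 1.75 in TSP1ΔPf4 livers. H2-DMb1 had the largest value of the list in TSP1F/F mice, 3.71 (adjusted p = 0.0749), and had 1.51 in TSP1ΔPf4 mice (adjusted p = 0.0678). The medians of the list were 2.86 and 1.61, against 1.15 and -0.54 over all genes tested. Between the genotypes on the AMLN diet all 6 had negative log2 differences, median -0.78 against -0.38 over all genes, and 1 of 6 was called, against 8.46% of all genes, H2-DMb1 (20.0 ± 11.2 against 6.66 ± 3.09 CPM, log2 difference -1.59, adjusted p = 0.0416). Each of the 6 overlapped between the genotypes, and 12.4% of all genes tested did not overlap in this direction, so this count shows nothing particular to the list.

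Guanylate-binding proteins and immunity-related GTPases, which defend cells against intracellular pathogens, had mostly higher means on the AMLN diet but were not called. Of 18, 7 are listed for TSP1F/F, 6 of them with a higher mean on the AMLN diet, and 8 for TSP1ΔPf4, all with a higher mean. Over all listed genes 1726 of 2558 and 1503 of 3399 had a higher mean. An unadjusted edgeR p under 0.05 was found for 6 and 7, close to the share of all genes tested (1680 of 2096 and 2649 of 3089). The median log2 fold changes of the list were 1.67 and 1.15, against 1.15 and -0.54 over all genes tested. The log2 fold change of Gbp5 was 2.85 (adjusted p = 0.304) and that of Gbp2 was 2.29 (adjusted p = 0.130) in TSP1F/F mice, that of Gbp10 was 1.71 (adjusted p = 0.0900) in TSP1ΔPf4 mice, and Gbp9 had 1.68 and 0.78 in the 2 genotypes. The 1 listed member with a lower mean, Iigp1 in TSP1F/F mice, was at 428 ± 154 CPM on the LF and 241 ± 59.2 CPM on the AMLN diet (-0.83, adjusted p = 0.361). Members of this family are similar in sequence, so their counts may be divided among them.

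Type I interferon-stimulated genes, which respond mainly to interferon-alpha and -beta, were mixed in direction. Of 22, 7 are listed in each genotype, 4 higher and 3 lower in TSP1F/F mice and 3 higher and 4 lower in TSP1ΔPf4 mice, and edgeR called 0 in either. All 7 had an unadjusted p under 0.05 in each, against 1680 of 2096 and 2649 of 3089 genes tested. That count shows nothing particular to the list. The medians were 1.71 and -0.65, against 1.15 and -0.54 over all genes tested. Oas3 and Oas2, enzymes that sense double-stranded RNA, had log2 fold changes of 3.99 and 3.05 in TSP1F/F mice, and Oasl2 and Ifit2 had 1.94 and 1.71. In TSP1ΔPf4 mice Oas3, Oasl2 and Ifit2 had 1.17, 1.00 and 0.82. The members with a lower mean are named after their values were seen. Ifit1, which binds viral RNA, had -1.01 and -0.65 in the 2 genotypes, and Isg15, a ubiquitin-like modifier as FAT10 is, had -0.64 and -1.01. Usp18 had -0.60 in TSP1F/F mice, and Mx2 and Ifi27 had -1.07 and -0.87 in TSP1ΔPf4 mice.

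The enzymes and binding partners of FAT10 were less often listed than Ubd itself. Of 6 genes in that list Ubd is in both tables, and Uba6, the enzyme that activates FAT10, and Nub1, which links it to the proteasome, are in the TSP1ΔPf4 table. Uba6 was at 2.90 ± 0.586 CPM on the LF and 4.94 ± 0.876 CPM on the AMLN diet (log2 fold change 0.77, adjusted p = 0.180), and Nub1 was at 13.7 ± 4.30 and 20.4 ± 1.62 CPM (0.57, adjusted p = 0.262). Of the immunoproteasome and MHC class I list 3 of 12 genes are listed. Tap1, the peptide transporter, had 0.69 in TSP1F/F mice, and the proteasome activator subunits Psme1 and Psme2 had -0.65 and -0.62 in TSP1ΔPf4 mice, none of them called.

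Genes that NF-kappaB is known to induce had positive log2 fold changes for the diet in every listed case, 6 of 6 in TSP1F/F and 7 of 7 in TSP1ΔPf4 mice. Over all listed genes 1726 of 2558 and 1503 of 3399 had a higher mean on the AMLN diet. With edgeR 0 of the list were called. An unadjusted p under 0.05 was found for 5 and 6, against 53% and 33.8% of all genes tested in this direction. The medians were 1.68 and 0.89, against 1.15 and -0.54 over all genes tested. Vcam1, an endothelial adhesion molecule, was at 5.94 ± 2.69 and 31.0 ± 23.3 CPM in TSP1F/F mice (2.38, adjusted p = 0.116) and at 9.07 ± 3.40 and 14.2 ± 4.02 CPM in TSP1ΔPf4 mice (0.65, adjusted p = 0.278). Relb and Nfkb2, which encode subunits of NF-kappaB, had 2.02 and 1.72, and 1.69 and 1.06, and Tnfaip3, an inhibitor of the pathway, had 1.67 and 1.55. Of the 25 genes of these 7 lists tested in both genotypes, 22 had a lower log2 fold change in TSP1ΔPf4 mice, and Cxcl9, Cxcl10 and Ifit1 had a higher one. These differences were not called for any of the 25, and the median interaction of all 734 genes was -0.34, or 0.05 with TMM.

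**Figure D4:**
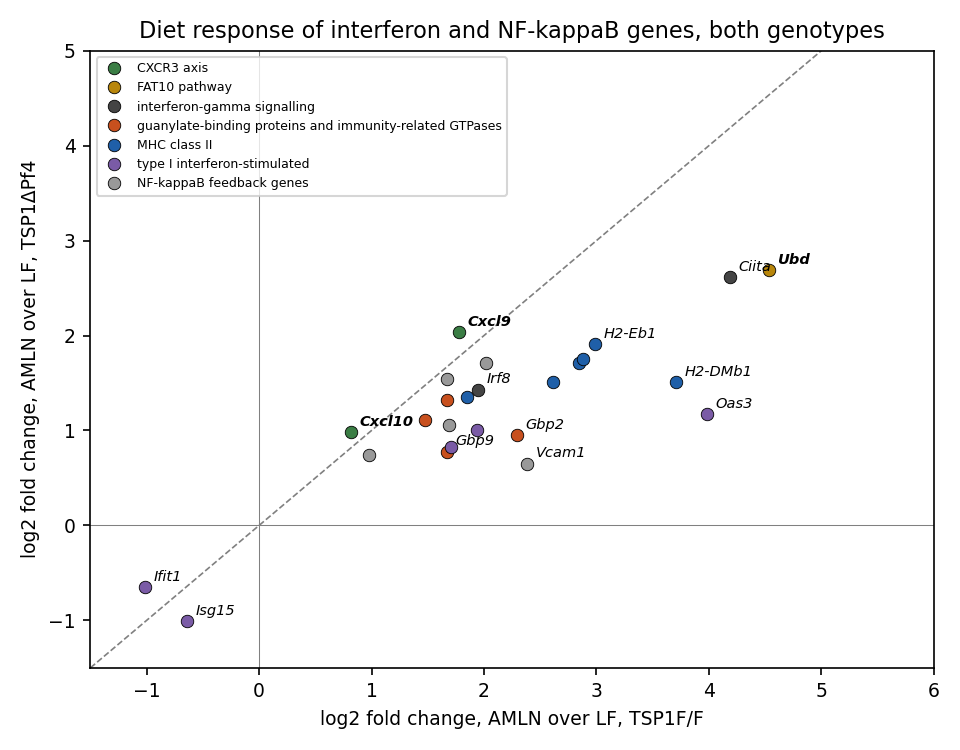
Log2 fold change of AMLN over LF in TSP1F/F (x axis) and TSP1ΔPf4 livers (y axis) for the 25 genes of 7 lists tested in both genotypes, each point 1 gene colored by its list, with a dashed line of equal change. Ubd lies far below the line at 4.53 and 2.69, while Cxcl9 (1.78 and 2.03) and Cxcl10 (0.82 and 0.98) lie just above it.

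Markers of cells that could carry or induce the 3 genes moved with them in part. For monocyte-derived macrophages, 8 of 12 markers are in both tables, and their summed level was 42.6 to 409 CPM in LF-fed and 405 to 2311 CPM in AMLN-fed mice with TSP1F/F, and 41.6 to 100.5 CPM in LF-fed and 116 to 220 CPM in AMLN-fed TSP1ΔPf4 mice. The sum did not overlap between the AMLN-fed genotypes, nor did Ubd, as for 12.4% of single genes tested in this direction. Of the 8 genes, 5 were called lower in TSP1ΔPf4 mice, against 8.46% of all genes tested. Lyz2 made up most of the sum in AMLN-fed TSP1F/F mice, at 622 ± 588 CPM. The 4 macrophage markers of largest diet change, Gpnmb, Mmp12, Itgax and Trem2, had log2 fold changes of 7.70, 6.14, 5.47 and 4.71 in TSP1F/F and of 5.09, 3.45, 2.40 and 1.96 in TSP1ΔPf4 mice. On the AMLN diet Gpnmb was at 38.8 ± 20.2 CPM in TSP1F/F and 7.27 ± 3.30 CPM in TSP1ΔPf4 mice (adjusted p = 0.0085) and Itgax at 6.25 ± 3.45 and 2.85 ± 0.948 CPM (adjusted p = 0.146). For Kupffer cells, 3 of 8 markers summed to 234 to 635 CPM in TSP1F/F and 137 to 178 CPM in TSP1ΔPf4 mice on the AMLN diet, and to 34.4 to 139 and 41.0 to 96.0 CPM on the LF diet. The Kupffer sum also did not overlap between the AMLN-fed genotypes, and 1 of the 3 genes, Cd5l, was called lower in TSP1ΔPf4 mice (edgeR adjusted p = 0.0333). For T and NK cells only Cd8a and Cd5 of 22 markers are in both tables. Their AMLN sums of 1.03 to 4.08 CPM in TSP1F/F and 0.600 to 2.20 CPM in TSP1ΔPf4 mice overlapped. On the LF diet they summed to 0 to 0.0551 and 0 to 0.425 CPM, and Cd5 was at 0 in all LF-fed TSP1ΔPf4 mice. All 7 markers listed for TSP1F/F had a higher AMLN mean, against 1726 of all 2558 genes. Of the 2 tested, Cd8a was called (log2 fold change 6.55, edgeR adjusted p = 0.0442), against 2.39% of all genes, and Ccl5 was not (1.66, adjusted p = 0.421). Cd8a was at 0 to 0.0551 CPM on the LF and 0.756 to 3.25 CPM on the AMLN diet. It thus passed the count filter through the AMLN-fed mice alone, and its fold change rests on LF values near 0. The call is not independent evidence for the diet. For TSP1ΔPf4 3 of 4 listed markers were higher, against 1503 of 3399 genes, and Zap70 was lower (-1.51), with 0 called. Endothelial markers Stab2 and Lyve1 (2 of 7) summed to 30.7 to 36.8 against 29.3 to 43.8 CPM on the AMLN diet, where the genotypes overlapped, and to 7.89 to 21.1 and 17.0 to 24.3 CPM on the LF diet. The stellate cell markers Pdgfrb and Col1a1 (2 of 6) summed to 10.7 to 35.3 against 6.50 to 39.6 CPM on the AMLN diet. No marker of dendritic cells, neutrophils or cholangiocytes is in both tables. Thus the Kupffer, endothelial and T and NK cell sums were higher and the hepatocyte sum lower on the AMLN diet in both genotypes, without overlap. The levels of Ubd and Cxcl9 were higher beside them. Every summed gene had been selected for a diet difference in the same mice, so these diet differences are not independent evidence. Among single genes tested, 768 of 2096 in TSP1F/F and 629 of 3089 in TSP1ΔPf4 mice were higher on the AMLN diet without overlap. In the lower direction 328 and 899 of them had no overlap. These sums hold few markers, and some markers listed in a single genotype went the other way. Marco (Kupffer cells) was lower on the AMLN diet in TSP1F/F mice (log2 fold change -2.75). In TSP1ΔPf4 mice Kdr (endothelium) was lower (-0.46) and Hnf4a (hepatocytes) was higher (0.60), none of them called. The part of cell number in the diet and genotype differences was not tested.

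Among mice of the same group, Ubd varied most like Vcam1 and MHC class II genes. Likeness was taken as Pearson's r of the deviations of log2(CPM + 0.5) from the group mean over 16 mice, among 672 genes in both tables with a mean of at least 1 CPM, and is given as a description, since the values of a mouse share a library, its depth and its tissue sample. The 5 genes most like Ubd were Vcam1 (r = 0.92), H2-Aa (0.90), Pla2g7 (0.87), H2-Ab1 (0.87) and H2-Eb1 (0.84), against a median of 0.14 over all genes. The 5 most like Cxcl9 were H2-Eb1 (0.85), H2-Aa (0.83), H2-Ab1 (0.83), H2-DMa (0.80) and Ubd (0.75). Cxcl10 had none of these among its 5 most alike, which were Itgax (0.77), Siglec1 (0.74), Parp8 (0.71), Evl (0.70) and Tm6sf1 (0.70). Between the members r was 0.75 for Cxcl9 and Ubd, 0.54 for Cxcl10 and Ubd, and 0.30 for Cxcl9 and Cxcl10, the neighbors on chromosome 5. The median r over all genes was 0.15 for Cxcl9 and 0.016 for Cxcl10. In likeness to Cxcl10, Ubd ranked 22 and Cxcl9 123 of the 672 genes.

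The summed level of the 6 MHC class II genes shows this mouse by mouse. In AMLN-fed TSP1F/F mice it was 434, 377, 855 and 900 CPM, with the same 2 mice high as for Ubd and Cxcl9. In AMLN-fed TSP1ΔPf4 mice it was 276, 472, 345 and 496 CPM, with replicates 2 and 4 high as for Cxcl9, while Ubd was nearly level in replicates 2 to 4. In order of replicate, Ubd was at 3.67, 8.43, 8.23 and 8.91 CPM in these mice. The 2 AMLN-fed TSP1F/F mice at 434 and 377 CPM of class II had 10.6 and 13.3 CPM of Ubd. Ubd did not overlap between the AMLN-fed genotypes, so setting mice of like class II level side by side could only show less Ubd in TSP1ΔPf4. Whether Ubd differed at an equal class II level was not tested.

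**Figure D5:**
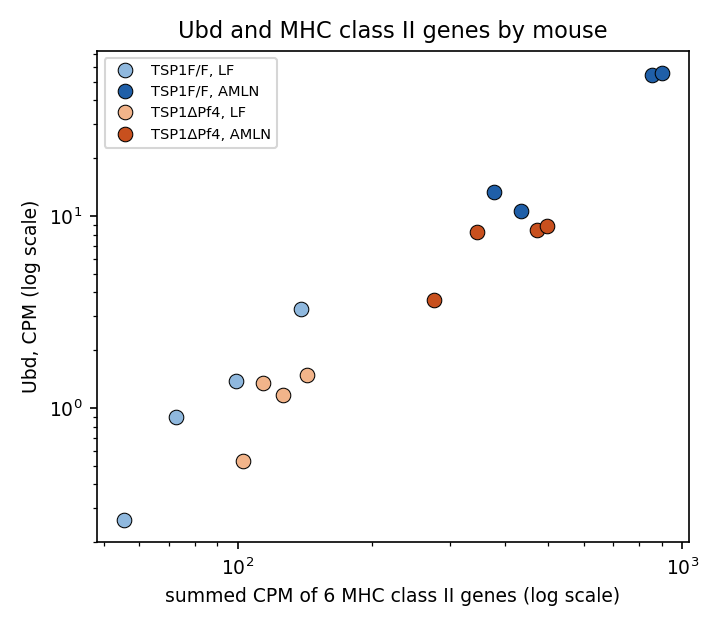
CPM of Ubd (y axis, log scale) against the summed CPM of 6 MHC class II genes (x axis, log scale) in each of the 16 mice, colored by genotype and diet. The 2 highest mice for both are AMLN-fed TSP1F/F mice at 855 and 900 CPM of class II, and the AMLN-fed TSP1ΔPf4 mice lie between 276 and 496 CPM of class II with 3.67 to 8.91 CPM of Ubd.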

How the data were processed

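Liver RNA of 16 mice was sequenced by the study as paired reads. The submitters' processing notes name HISAT2, DESeq2 and mm10, while the methods of the study name STAR, and the counting program, annotation release and strand setting are not given in the sources used here. Counts per gene were deposited by the authors for each mouse with no normalization. The signal values deposited beside them are counts over 1 size factor per library. FPKM values deposited by the authors relate counts to gene length and a library total. The authors' deposited log2 fold changes and p-values compare the diets, and their values are not used as results. Only the range of these p-values and the size of the adjusted family (16784 genes in TSP1F/F, 13927 in TSP1ΔPf4) were read from them. All 48 columns of single mice were matched to a mouse and 0 were left unmatched.

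The tables hold 2558 (TSP1F/F) and 3399 (TSP1ΔPf4) genes, all with an authors' unadjusted p-value under 0.05. Library totals were recovered from counts, length and FPKM; 1 of 16 is a whole number within 0.001, so they may be scaled and not raw totals. With these totals, genes passing filterByExpr went into quasi-likelihood F tests in edgeR 4.0.16 (R 4.3.3, limma 3.58.1). Adjustment was by Benjamini-Hochberg, for the diet over the authors' number of genes with unlisted genes taken as not called, and for genotype and interaction over the genes tested. The spread shared between genes comes from selected genes, a limit on all p-values here. Calls needed both an adjusted p under 0.05 and a log2 fold change beyond 0.25 in size. Intervals use the standard error and the residual degrees of freedom of the mice. Single values were compared by exact permutation tests. Alternatives were TMM, DESeq2 1.42.0, no filter, no fold limit, other adjustment, a replicate block, all 16 mice in 1 fit, the authors' size factors and each mouse left out.

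Named genes are the 3 members, the members of 18 gene lists (the 4 of largest diet change with values and the rest by counts, except that marker lists other than macrophages are given mainly by summed levels and that members opposite to most of their list were named once values were known), Cxcl11, Cxcr3, Ifng and Irf1, and the 5 genes most like each member. The members and lists were chosen with earlier results of these data known. Replicate numbers were not taken as pairs. Gene coordinates are those of the files, and promoters are from RefSeq (GRCm38.p6), where all 3 members matched.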

Additional observations from a re-analysis of the deposited data

Results flagged for a closer look

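Ubd in AMLN-fed TSP1ΔPf4 replicate 1, at 3.67 CPM, lay far below the other 3 mice of its group, which were at 8.23 to 8.91 CPM. Its gap to the nearest mouse was 0.869 of the range of the group, above Dixon's 95% critical value for 4 samples. It was the only 1 of 12 combinations of gene and group to do so, and chance flags about 1 in 20 groups. The same mouse had the lowest Cxcl9 (9.21 CPM), Cxcl10 (4.07 CPM) and MHC class II sum (276 CPM) of its group. Without it the Ubd difference between the AMLN-fed genotypes was -1.97 on the log2 scale, with an edgeR adjusted p = 0.0718.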

How the results depend on the processing

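Over the alternatives Ubd kept a positive diet effect and a negative AMLN genotype difference, and the Cxcl9 and Cxcl10 diet effects stayed positive. Replicate numbers were not taken as pairs: r of same-numbered mice was -0.47 to 0.48, and 0.098, 0.28, 0.32 and 0.40 between the AMLN-fed genotypes. A replicate block took the Ubd diet calls away (4.69, adjusted p = 0.0888, and 2.67, adjusted p = 0.0785) and kept its AMLN genotype call (-1.90, adjusted p = 0.000397). The block moved calls of genes to 10 (TSP1F/F diet, main 52), 4 (TSP1ΔPf4 diet, main 92), 116 (AMLN genotype, main 66) and 0 (interaction, main 3), and turned Ubd on LF to 0.063. Calls were 198 with TMM (TSP1ΔPf4 diet), 15 (interaction); 741, 1376, 1 and 44 with DESeq2 (both diets, LF genotype, interaction); 83 with no filter (TSP1F/F diet); and 1124 and 2187 when adjusted over the table only. That adjustment also called Cxcl9 (1.78 and 2.03) and, in TSP1ΔPf4, Cxcl10 (0.98). In TSP1ΔPf4, TMM called Cxcl9 (2.34) and DESeq2 called Cxcl9 (2.35) and Cxcl10 (1.29). The AMLN genotype difference turned to 0.12 (TMM) and 0.22 (DESeq2) for Cxcl9 and 0.040 (DESeq2) for Cxcl10, and as a ratio to Cxcl9 that of Ubd was -1.51 and no longer passed. Leaving out 1 mouse gave 2 to 61, 1 to 182, 22 to 84 and 0 to 24 calls (both diets, AMLN genotype, interaction). Ubd then ranged over 4.18 to 5.30 and 2.45 to 2.91 (diets), -2.49 to -1.84 (AMLN genotype) and -0.70 to 0.41 (LF), and Cxcl9 over -0.65 to 0.12 (AMLN genotype) and -0.23 to 0.54 (interaction), Cxcl10 over -0.079 to 0.38 (interaction). TMM moved the median of all genes from 1.15 to 0.97 and from -0.54 to -0.21 for the diets. The causes were not tested. With 4 mice a group and 5 to 61 Ubd counts on LF, small differences were not detectable.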

Other observations

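Other CXC chemokines, most of which attract neutrophils or monocytes, were listed in 6 of 12 cases, and edgeR called 0 for the diet. Of 3 tested in TSP1F/F and 1 in TSP1ΔPf4 mice, 3 and 0 had an unadjusted p under 0.05, against 1680 of 2096 and 2649 of 3089 genes tested. In TSP1F/F mice Pf4, a platelet chemokine, was at 0.380 ± 0.397 CPM (SD, n = 4) on the LF and 3.34 ± 1.24 CPM on the AMLN diet (log2 fold change 3.14, adjusted p = 0.232). Cxcl16, a ligand of CXCR6, was at 6.35 ± 4.08 and 17.8 ± 6.53 CPM (1.49, adjusted p = 0.267), and Cxcl14 was at 0.916 ± 0.524 and 3.51 ± 2.63 CPM (1.93, adjusted p = 0.362). In TSP1ΔPf4 mice Cxcl1, a neutrophil attractant, was at 3.38 ± 1.74 and 6.71 ± 3.22 CPM (0.99, adjusted p = 0.292). Cxcl5, another neutrophil attractant, was the 1 gene of this list in both tables. It was at 0.404 to 1.74 CPM in the 4 AMLN-fed TSP1F/F mice and at 0 counts in all 4 AMLN-fed TSP1ΔPf4 mice. There edgeR called it lower (adjusted p = 0.0100), against 8.46% of all genes tested. It passed the count filter in that comparison through the TSP1F/F mice alone. It had also been selected for a diet difference in each genotype, higher on the AMLN diet in TSP1F/F and lower in TSP1ΔPf4 mice. The genotype order is thus partly built into the selection, and the call is not independent evidence. On the LF diet Cxcl5 was at 0 to 0.221 CPM in TSP1F/F and 0 to 0.701 CPM in TSP1ΔPf4 mice, which overlapped, so its level was low in every group.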
